A study of Mus musculus with 8 samples.

Results

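Fidgetin (Fign) and 4 related microtubule-severing ATPase genes, Fignl1, Spast, Katna1 and Katnal1, were followed in the striatum of newborn mice with and without the transcription factor Ctip2, whose current symbol is Bcl11b. The members were taken as every probe set to which the array's annotation gives 1 of these symbols alone, which gave 10 probe sets of 45037 and 5 genes of 18193. Fign was picked from its large rise in the null arrays, so its difference between null and wild type is given as a description with no test. The other 4 genes were added because their proteins belong to the same enzyme family. The animals were 4 Ctip2 null mutants, 1 Ctip2 heterozygote and 3 wild type mice, all of strain BALB/c and at postnatal day 0. Each gave RNA from a tissue punch in the middle of the striatum and was hybridised to an Affymetrix array of its own. Every value below is the deposited RMA expression value of a probe set on the log2 scale, and SDs are over animals. The labels do not say which part of the gene the null allele lacks.

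Severing ATPases of this family assemble into rings that grip the tail of a tubulin subunit, pull it into the central pore and so take subunits out of the microtubule wall. Cuts of this kind shorten, release or remodel microtubules, and in neurons they bear on axon growth and branching. Fidgetin trims the labile, freshly assembled part of neuronal microtubules, as shown in rat neurons. Spastin, the product of Spast, also works with the membrane-cutting ESCRT-III complex and is the protein most often affected in hereditary spastic paraplegia in humans. Katna1 encodes the catalytic subunit of katanin and Katnal1 a close relative of it, while the product of Fignl1 is best known for its part in DNA repair and meiotic recombination.

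Bcl11b was lower in null than in wild type striatum on all 4 of its probe sets, by 2.16-fold to 3.16-fold (limma adjusted p from 0.0011 to 0.0152). Over all genes, limma called 2.86% higher and 0.786% lower in null than in wild type striatum, and the marker counts stand against these shares. The punches held signal of striatal projection neurons. The mean log2 value over 12 of their markers was 9.81 to 9.98 in null arrays, 10.52 in the heterozygote and 9.80 to 10.03 in wild type arrays, but single markers went both ways. Pde10a, Drd1 and Ppp1r1b were called lower, with differences of -1.04, -0.93 and -1.30. Gad1, which marks GABA neurons in general, was called higher at 1.41, and 8 did not pass. Markers of pallial neurons, which cover the striatum, averaged 5.09 to 5.24 over 7 genes in null arrays, 4.94 in the heterozygote and 5.24 to 5.36 in wild type arrays. Markers of microglia averaged 7.04 to 7.40 over 7 genes in null arrays, 6.86 in the heterozygote and 6.72 to 6.82 in wild type arrays, and 1 of the 7, C1qa, was called higher where 2.86% of all genes were. For 4 of the 7, every null array lay above every wild type array, against 8.59% of all genes. Markers of interneurons and olfactory bulb cells averaged 7.72 to 7.90 over 9 genes in null arrays, 7.93 in the heterozygote and 7.33 to 7.71 in wild type arrays. Of the 9, 3 were called higher, against the same 2.86%: Calb2, Th and Lhx6, at 1.52, 1.39 and 1.06. These markers also went both ways. Npy (-0.65), Sst (-0.29), Pvalb (-0.22) and Nkx2-1 (-0.16) were lower on average and Sp8 (0.14) and Chat (0.10) higher, without a call. Of the 9, Npy alone lay lower in every null array than in any wild type array, where 9.62% of all genes did. Null arrays all lay above the wild type arrays for 3 of the 9, against 8.59% of all genes. Markers of choroid plexus and ependyma averaged 5.61 to 6.82 over 9 genes in null arrays, 5.50 in the heterozygote and 6.07 to 6.65 in wild type arrays, and 9 did not pass. Of these, Ttr read 7.11, 13.44, 8.27 and 11.17 in null 1 to 4, 7.44 in the heterozygote and 13.34, 9.37 and 11.44 in wild type 1 to 3. Null 2 and wild type 1, the arrays of highest Ttr, are left out together in an alternative below. The part of these marker differences in the values below was not tested. In punches of whole tissue, a change in the share of a cell type and a change in RNA per cell cannot be told apart. Arrays were not equally wide in their values, and the width partly followed genotype. Fits below with the SD of each array as a covariate therefore cannot tell array spread from genotype. The log2 SD over all probe sets was 1.96, 2.03, 2.05 and 1.90 in null 1 to 4, 2.06 in the heterozygote and 1.97, 1.84 and 1.87 in wild type 1 to 3, while array medians lay between 6.21 and 6.35.

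The stretches of 250 bases upstream of the start of Fign and of Fignl1, its closest relative here, are shown because the mean differences of these genes had opposite signs, without a call for Fignl1. Both are from RefSeq (GRCm38.p6), on the strand of the gene, with CG dinucleotides in capitals. The Fign stretch is chr2:64098039-64098288 and the Fignl1 stretch chr11:11808963-11809212, both on the minus strand.
Fign: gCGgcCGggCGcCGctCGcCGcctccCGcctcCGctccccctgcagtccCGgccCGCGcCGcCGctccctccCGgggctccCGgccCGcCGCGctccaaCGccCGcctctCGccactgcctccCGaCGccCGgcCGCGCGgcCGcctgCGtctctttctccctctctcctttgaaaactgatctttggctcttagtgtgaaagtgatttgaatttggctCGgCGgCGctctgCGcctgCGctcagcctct
Fignl1: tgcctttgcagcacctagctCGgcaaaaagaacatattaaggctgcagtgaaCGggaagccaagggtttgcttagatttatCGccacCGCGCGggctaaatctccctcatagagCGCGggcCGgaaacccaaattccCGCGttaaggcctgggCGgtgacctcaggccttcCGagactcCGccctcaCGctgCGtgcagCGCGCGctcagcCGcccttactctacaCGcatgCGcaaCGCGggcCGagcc

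The Fign stretch was rich in CG pairs. It held 34 of them and 72.4% G or C, more CG pairs than 96.5% of 32851 promoters of the same length, whose medians were 6 CG pairs and 52.4%. Fignl1 held 25 CG pairs, Spast 31 and Katnal1 21, with 61.2%, 78.8% and 67.2% G or C. Katna1 was not searched. Each stretch was searched on both strands for the TATA box (TATAAA, found in 12.4% of all promoters), the GC box (GGGCGG, 32.7%), the CCAAT box (33.8%) and TGACCA (11.4%), a motif known for BCL11A, the paralogue of Ctip2. Fign and Katnal1 held none of the 4 motifs in this window. Fignl1 held the GC box at 3 places and Spast at 1 place, and neither held the other 3 motifs.

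Fign was high in every null animal on the same 2 of its 3 probe sets and low in the heterozygote and in every wild type animal. The brightest probe set, 1450268_at, read 7.78, 8.02, 7.88 and 8.17 in null 1 to 4, 5.14 in the heterozygote and 4.85, 4.43 and 4.97 in wild type 1 to 3. The 4 null arrays lay within 0.39 of each other and apart from all other arrays. The group means were 7.96 ± 0.17 (SD, n = 4) in null and 4.75 ± 0.28 (SD, n = 3) in wild type striatum, a 9.27-fold difference (3.21 on the log2 scale) that ranked 3 of 18193 genes. The table holds no detection calls, so how far the low wild type values lie above background is unknown, and the fold is imprecise for that reason.

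Probe set 1442873_at gave the same picture. It read 7.76, 7.99, 7.84 and 7.97 in null 1 to 4, 4.35 in the heterozygote and 3.98, 3.78 and 4.52 in wild type 1 to 3. Its means of 7.89 ± 0.11 (SD, n = 4) in null and 4.09 ± 0.39 (SD, n = 3) in wild type arrays differed by 3.80, or 13.9-fold. The heterozygote stood among the wild type arrays here, and just above them on 1450268_at. Counted from the wild type mean, it had gone 12.2% of the way to the null mean on 1450268_at and 6.67% of the way on 1442873_at. Beside 1 heterozygote array with no replicate, the place between the groups is a value and was not tested.

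The third Fign probe set, 1439602_at, differed less and ordered the animals another way. It read 6.09, 5.66, 5.59 and 6.62 in null 1 to 4, 4.45 in the heterozygote and 5.002, 5.52 and 5.36 in wild type 1 to 3. Null arrays again lay above wild type arrays, with means of 5.99 ± 0.48 (SD, n = 4) and 5.29 ± 0.26 (SD, n = 3), a difference of 0.70. The heterozygote was the lowest of the 8 arrays on this probe set. Null 4 and null 1 were the highest null arrays on it, and these are the null arrays of smallest spread. With the SD of each array as a covariate the difference was 1.22, against 3.21 on 1450268_at and 3.83 on 1442873_at, which moved little.

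**Figure D1:**
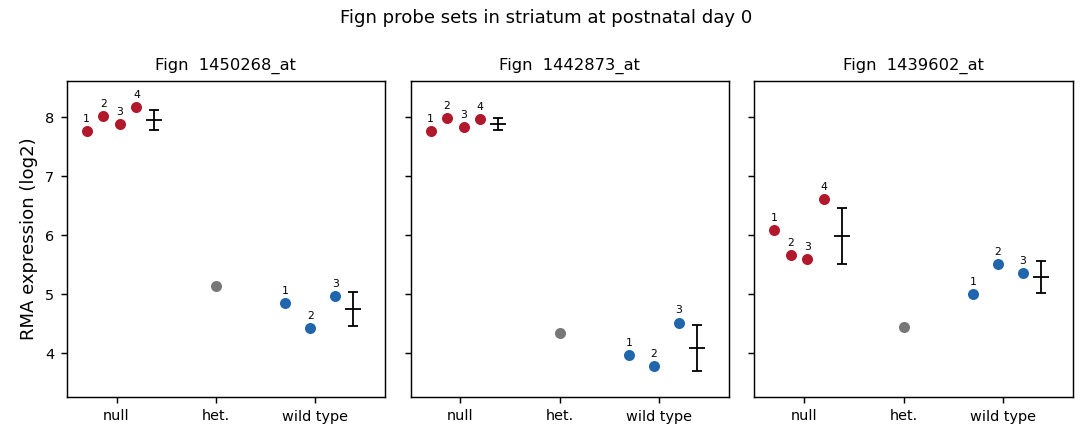
RMA expression (log2, vertical axis) of the 3 Fign probe sets in each array, with null animals (red), the heterozygote (grey) and wild type animals (blue) from left to right, replicate numbers beside the points and mean ± SD as bars. On the first 2 probe sets null arrays lie between 7.76 and 8.17 and all other arrays at or below 5.14, while on the third the groups lie closer, with means of 5.99 and 5.29.

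Among the other severing ATPases no probe set passed the test against wild type, and Katnal1 came closest. In limma over all probe sets, 0 of the 7 probe sets of Fignl1, Spast, Katna1 and Katnal1 had an adjusted p under 0.05, where 1.87% of all probe sets were called higher and 0.453% lower in null striatum. At an unadjusted p under 0.05, 3 of the 7 were higher, against 10.9% of all probe sets, and the same count had a SAM score above 2, the kind of score the study used, against 10.3%. The null arrays all lay above the wild type arrays on 2 of the 7, against 7.7% of all probe sets, and all below on 0 of the 7, against 8.85%. With 7 probe sets of 4 genes, these shares describe the members only.

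Katnal1, the katanin-like catalytic subunit, read higher in all null arrays than in any wild type array on both of its probe sets. Probe set 1439606_at read 7.07, 7.79, 8.52 and 7.15 in null 1 to 4, 7.70 in the heterozygote and 6.47, 6.04 and 6.89 in wild type 1 to 3. The means were 7.63 ± 0.67 (SD, n = 4) and 6.47 ± 0.42 (SD, n = 3), a difference of 1.17 (95% interval 0.41 to 1.92, limma adjusted p = 0.114). Here the null arrays spread over 1.45 log2 units, and the heterozygote stood inside the null range.

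Probe set 1442348_at of Katnal1 read 6.05, 6.38, 6.48 and 5.22 in null 1 to 4, 5.86 in the heterozygote and 5.17, 4.63 and 4.48 in wild type 1 to 3. Null 4 lay only just above wild type 1. The difference was 1.27 (95% interval 0.62 to 1.93, limma adjusted p = 0.0577), and it was called without null 4 (adjusted p = 0.0068) or without wild type 1 (adjusted p = 0.0394). With the SD of each array as a covariate the differences fell to 0.65 on both probe sets (limma adjusted p = 0.626 and 0.171). A further 2 probe sets carry the symbols of both Katnal1 and the noncoding RNA gene 5930430L01Rik and were not counted as Katnal1. These were lower in null arrays on average, by 0.32 each, with overlapping groups.

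Spast, which encodes spastin, was higher in null arrays on average, with overlapping groups. Its brighter probe set, 1454794_at, read 10.33, 10.36, 10.91 and 9.82 in null 1 to 4, 10.42 in the heterozygote and 9.996, 9.09 and 9.48 in wild type 1 to 3. Null 4 stood below wild type 1, and the heterozygote stood inside the null range. The means of 10.35 ± 0.45 (SD, n = 4) and 9.52 ± 0.45 (SD, n = 3) differed by 0.83 (95% interval 0.24 to 1.43, limma adjusted p = 0.147), and by 0.28 (adjusted p = 0.675) with the SD of each array as a covariate. Probe set 1460400_at read 7.68, 7.73, 7.69 and 7.02 in null 1 to 4, 7.48 in the heterozygote and 7.44, 7.27 and 7.39 in wild type 1 to 3. Null 4 was the lowest of all arrays there, and the difference was 0.16 (95% interval -0.24 to 0.57, limma adjusted p = 0.597).

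Katna1, the catalytic subunit of katanin, overlapped between the groups on its single probe set, 1450949_at. It read 6.70, 6.97, 6.91 and 6.28 in null 1 to 4, 7.04 in the heterozygote and 6.74, 6.11 and 5.95 in wild type 1 to 3. The heterozygote was the highest array. The difference of 0.45 (95% interval -0.05 to 0.95, limma adjusted p = 0.286) became 0.0096 (adjusted p = 0.996) with the SD of each array as a covariate.

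Fignl1, or fidgetin-like 1, was lower in null arrays on average. Probe set 1422430_at read 5.50, 5.78, 6.04 and 5.73 in null 1 to 4, 5.801 in the heterozygote and 6.14, 6.002 and 5.97 in wild type 1 to 3. Null 3 lay among the wild type arrays, and the difference was -0.28 (95% interval -0.60 to 0.05, limma adjusted p = 0.308). Probe set 1460746_at read 4.58, 4.52, 4.58 and 4.62 in null 1 to 4, 4.50 in the heterozygote and 4.50, 5.04 and 4.80 in wild type 1 to 3, with a difference of -0.21 (95% interval -0.52 to 0.11, limma adjusted p = 0.407).

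**Figure D2:**
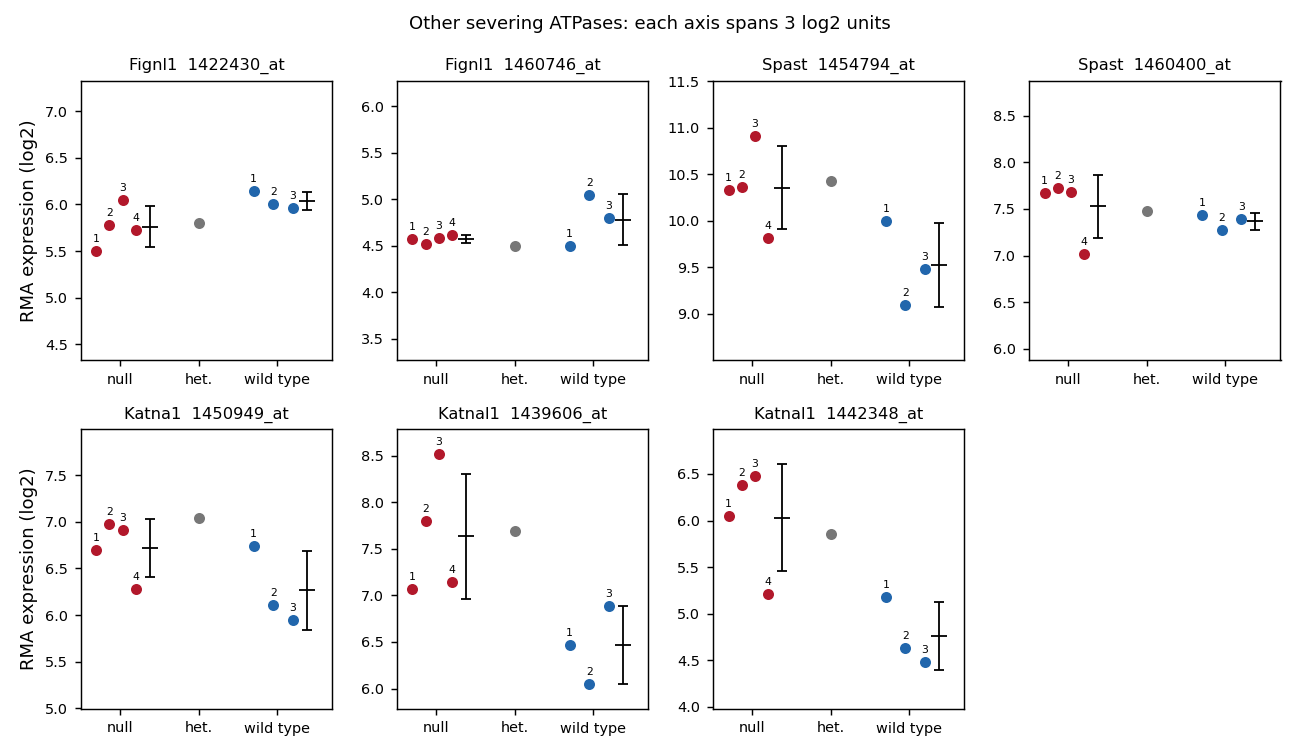
RMA expression (log2, vertical axis) of the 7 probe sets of Fignl1, Spast, Katna1 and Katnal1 in null animals (red), the heterozygote (grey) and wild type animals (blue), with replicate numbers and mean ± SD. Null arrays clear all wild type arrays on the 2 Katnal1 probe sets only, and on these the heterozygote, at 7.70 and 5.86, lies within the null range.

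The order of the groups thus differed between members. On 1450268_at of Fign the order was null, heterozygote, wild type, with the heterozygote at -2.82 from the null mean and 0.39 above the wild type mean. On 1454794_at of Spast and 1439606_at of Katnal1 the heterozygote lay 0.07 and 0.06 above the null mean and 0.90 and 1.23 above the wild type mean. On 1450949_at of Katna1 it lay 0.32 above the null mean. The heterozygote was the array of widest spread, and null 4, the null array of narrowest spread, was the lowest null array on Spast, on Katna1 and on 1442348_at of Katnal1 and the highest on 1450268_at of Fign.

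**Figure D3:**
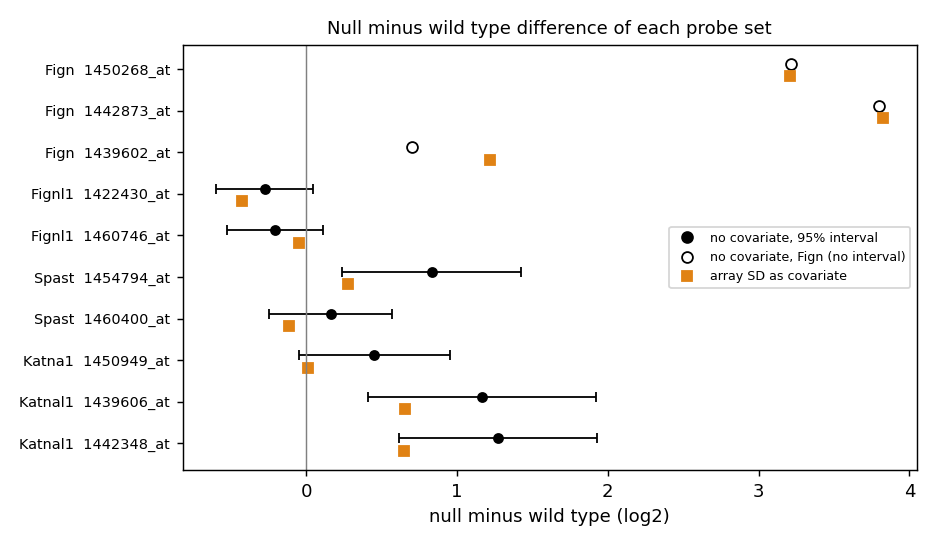
Null minus wild type difference (log2, horizontal axis) of each of the 10 probe sets, as circles without a covariate, with 95% intervals except for Fign, and as squares with the SD of each array as a covariate. The 2 upper Fign probe sets stand at 3.21 and 3.80 without the covariate and at 3.21 and 3.83 with it, and all 5 probe sets of Spast, Katna1 and Katnal1 stand lower with it.

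Likeness to each member was measured as Pearson's r over the 8 arrays, as a description, among 16286 other named genes with 1 probe set each. The arrays share their genotype groups and their spread, so a high r says only that the values rise and fall together. For Fign, 87 genes had an r above 0.9 and 118 an r below -0.9. Spast had 1067 and 974 such genes, Katna1 553 and 1046, Katnal1 491 and 254, and Fignl1 4 and 5. Between the brightest probe sets of the members, r was 0.88 for Spast with Katnal1, 0.87 for Spast with Katna1 and 0.66 for Katna1 with Katnal1. Fign gave 0.64 with Katnal1, 0.60 with Spast, 0.36 with Katna1 and -0.57 with Fignl1.

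The 6 genes most like Fign were Syt13, which encodes an atypical synaptotagmin (r = 0.995), Nts, the precursor of neurotensin (0.986), the netrin receptor gene Unc5d (0.986), Mast1, a kinase that associates with microtubules (0.978), the ephrin gene Efnb3 (0.972) and Col4a4, a basement membrane collagen gene (0.970). All 6 lay higher in every null array than in any wild type array, where 8.59% of all genes did. The 6 were picked for a high r to Fign, itself picked for its rise in null arrays, so this separation was largely built in. The difference was 1.03 for Syt13, 2.61 for Nts, 2.41 for Unc5d, 0.74 for Mast1, 1.44 for Efnb3 and 0.74 for Col4a4. On the second probe set of Mast1 the difference was -0.09, and Col4a4 has 1 probe set at -0.14 and another at 1.45. The 3 genes most opposite to Fign were Ptk2b, which encodes a calcium-regulated tyrosine kinase (r = -0.995, difference -1.59), Itpka, an inositol trisphosphate kinase (-0.992, -3.32), and Crabp1, a retinoic acid-binding protein (-0.989, -1.09).

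The genes most like the other members were of other kinds. Paip1, a partner of poly(A)-binding protein (r = 0.992), and Nit1 (0.991) followed Spast, Ppfia2, a liprin of the synapse (0.994), and Ypel3 (0.987) followed Katnal1, Wdsub1 (0.990) and Sccpdh (0.989) followed Katna1, and Hey1, a Notch target (0.968), and Tox2 (0.928) followed Fignl1.

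**Figure D4:**
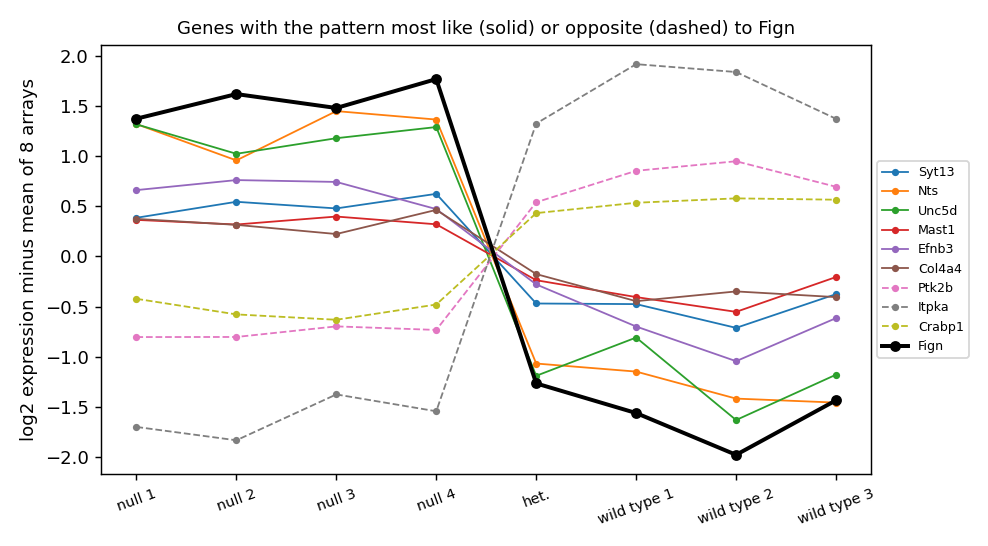
Log2 expression minus its mean over the 8 arrays (vertical axis) for Fign (thick black), the 6 genes of highest r to it (solid) and the 3 of lowest r (dashed), with null 1 to 4, the heterozygote and wild type 1 to 3 along the horizontal axis and lines joining the values of 1 gene. The heterozygote lies on the wild type side for every gene shown, and Itpka and Fign span the widest range.

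Genes that flank Fign in the reference gene order (GRCm38.p6) did not pass the test. Of the nearest genes with a probe set, Kcnh7, a potassium channel gene, and Gca lie on 1 side and Grb14 and Cobll1 on the other. Kcnh7 read 6.61, 6.45, 6.38 and 6.53 in null 1 to 4, 6.22 in the heterozygote and 6.47, 6.71 and 6.62 in wild type 1 to 3, a difference of -0.11 (95% interval -0.39 to 0.18, limma adjusted p = 0.596). Grb14 differed by 0.14 (adjusted p = 0.705), Cobll1 by -0.13 (adjusted p = 0.592) and Gca by 0.07 (adjusted p = 0.724). The groups overlapped on all 4, and the sign for Grb14 turned under 5 alternatives. Over all genes, null arrays all lay above the wild type arrays for 8.59% and all below for 9.62%. With 2.86% of all genes called higher and 0.786% lower, 4 genes without a call say little. Gca was dim, at 4.05 to 4.22 in null and 4.02 to 4.10 in wild type arrays, so a change in it could go unseen.

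Other microtubule genes passed the adjusted test at shares near those of all genes. In 6 lists of microtubule genes, chosen with earlier results of these data known, 4 of 106 measured genes were higher, 1 was lower and 101 did not pass, where 2.86% of all genes were called higher and 0.786% lower. At an unadjusted p under 0.05 in either direction 40 of the 106 passed, and 41 by SAM, against 21.3% and 24.0% of all genes. Null arrays all lay above the wild type arrays for 24 of the 106, against 8.59% of all genes, and all below for 9, against 9.62%. The median difference over the 106 genes was 0.17, against -0.08 over all genes, and 0.03 with the SD of each array as a covariate. By list, the median was 0.47 for wall-binding proteins, 0.28 for end proteins, 0.26 for spastin partners, -0.09 for severing relatives, -0.11 for tubulin-modifying enzymes and -0.13 for recombination partners of Fignl1. With that covariate those for wall-binding proteins, end proteins and spastin partners were 0.21, 0.16 and -0.02. Single arrays moved these counts. Without wild type 1 or null 4 there were 10 or 8 higher genes, without null 1, 2 or 3 there were 1, 1 or 2, and without wild type 2 or 3 there were 1 or 0, with 0 lower in each of the last 5 settings.

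The nearest relatives of the severing ATPases did not pass. On the list of severing relatives, 0 of 5 measured genes passed in limma, and 0 did at an unadjusted p under 0.05 or by SAM, where 21.3% of all genes passed the unadjusted p and 24.0% the SAM score. The largest absolute differences were 0.23 for Vps4b, an ATPase that disassembles ESCRT-III (adjusted p = 0.509), and -0.22 for Aspm, a spindle pole protein (adjusted p = 0.435). Of 24 tubulin-modifying enzymes, 0 passed in limma, with 8 at an unadjusted p under 0.05 and 8 by SAM. Ttll11, a tubulin polyglutamylase gene, differed by 0.66 (adjusted p = 0.0735, called without wild type 1 at 0.0234 or null 4 at 0.0421), with 2 of its 3 other probe sets of opposite sign, and Hdac6, a tubulin deacetylase gene, by 0.54 (adjusted p = 0.117). Of 12 recombination partners of Fignl1, 0 passed in limma, with 0 at an unadjusted p under 0.05 and 1 by SAM. Spidr, a scaffold protein of DNA repair, differed by 0.26 (adjusted p = 0.358) and Brca1 by -0.24 (adjusted p = 0.466).

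The called genes came from the other 3 lists. Of 26 genes for end-binding proteins and depolymerisers, 2 rose, 0 fell and 24 did not pass. Over all genes the shares were 2.86% higher and 0.786% lower. At an unadjusted p under 0.05 in either direction 10 of the 26 passed, and 10 by SAM, against 21.3% and 24.0% of all genes. Null arrays all lay above the wild type arrays for 7 and all below for 1, against 8.59% and 9.62%. Clasp1, which encodes a protein that stabilises growing plus ends, read 11.50, 11.70, 11.84 and 11.12 in null 1 to 4, 11.26 in the heterozygote and 10.64, 10.16 and 10.40 in wild type 1 to 3. It rose by 1.14 ± 0.19 (SE, limma adjusted p = 0.0129). Its other 3 probe sets did not pass, with differences of 0.84, 0.21 and -0.11 (limma adjusted p = 0.0733, 0.489 and 0.620), and the mean of its 4 probe sets differed by 0.52 (adjusted p = 0.0511). Stmn4, a stathmin family gene, rose by 0.63 ± 0.15 (SE, limma adjusted p = 0.0454). The wall-binding list's median of 0.47 was 0.30 after quantile normalization. Of its 15 genes, 12 passed at an unadjusted p under 0.05 and 11 by SAM, against 21.3% and 24.0% of all genes. Null arrays all lay above the wild type arrays for 8 and all below for 2, against 8.59% and 9.62%. Where 2.86% of all genes were called higher and 0.786% lower by adjusted p, 1 of the 15 rose and 0 fell. That gene was Dcx, the doublecortin of migrating neurons, at 11.70, 11.74, 12.12 and 11.65 in null 1 to 4, 11.51 in the heterozygote and 11.19, 11.001 and 11.23 in wild type 1 to 3. Dcx rose by 0.66 ± 0.15 (SE, limma adjusted p = 0.0421), and its other 3 probe sets also lay higher, by 0.68 to 1.28.

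Of 24 spastin partners, 1 rose and 1 fell, where 2.86% of all genes were called higher and 0.786% lower. At an unadjusted p under 0.05, 10 of the 24 passed, and 11 by SAM, against 21.3% and 24.0% of all genes. Null arrays all lay above the wild type arrays for 4 and all below for 3, against 8.59% and 9.62%. Reep3, an endoplasmic reticulum protein gene, rose by 0.81 ± 0.19 (SE, limma adjusted p = 0.0459), and its relative Reep5 fell by 0.54 on the log2 scale (SE 0.12, limma adjusted p = 0.0349). Of their other probe sets, 2 of 5 of Reep3 and 1 of 2 of Reep5 had the opposite sign. Clasp1 lost its call without wild type 2 (adjusted p = 0.0555) or wild type 3 (0.0593). Dcx and Reep5 each lost theirs without null 1, 2 or 3 or wild type 2 or 3, Reep3 without null 1, 2 or 3 or wild type 1 or 3, and Stmn4 without any array but null 4, at up to 0.171 over these 4 genes. With the SD of each array as a covariate the other 4 called genes lost their calls, and Clasp1 stood at 0.77 (adjusted p = 0.0306). Clasp1 was not called with the heterozygote among the wild type arrays (adjusted p = 0.151).

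**Figure D5:**
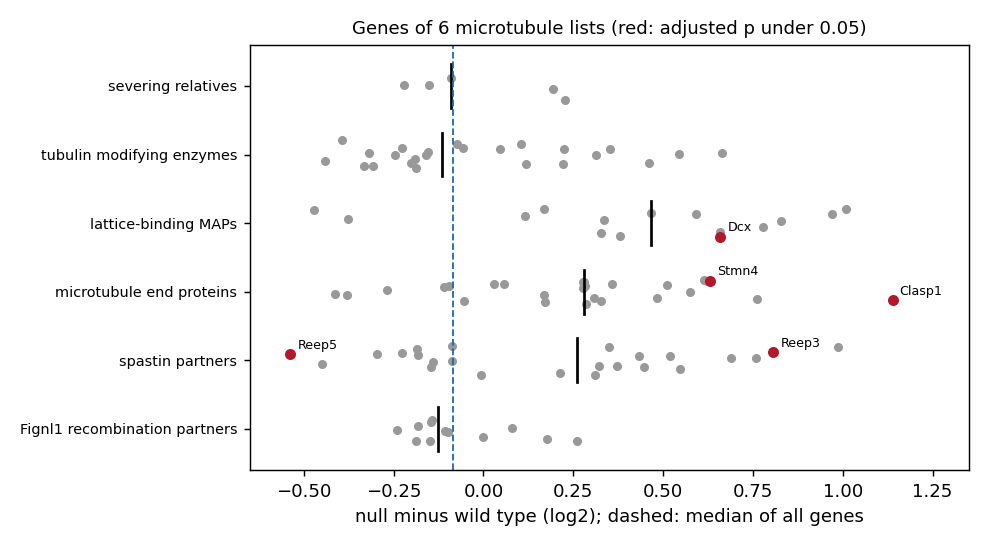
Null minus wild type difference (log2, horizontal axis) of the 106 measured genes in 6 microtubule lists, 1 point a gene, with red for an adjusted p under 0.05, black bars for list medians and a dashed line for the median of all genes at -0.08. Clasp1, at 1.14, lies farthest to the right, and Reep5 is the single red point below 0.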

How the data were processed

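Expression was measured on 8 Affymetrix arrays, 1 per mouse, from 4 null, 1 heterozygote and 3 wild type animals. The authors deposited 1 log2 value for each probe set and array, made with RMA (background correction, quantile normalization and summary over probes), per the series' design text and the submitters' processing notes. The sources used here give neither its version nor which arrays were normalized together. The spread of the deposited values stayed unequal between arrays, so the SD of each array was tried as a covariate. This SD is made from the same values, and it lay at 1.90 to 2.05 in null and 1.84 to 1.97 in wild type arrays. The covariate thus takes up part of the contrast between the groups. A difference that shrinks with it cannot be assigned to array spread or to genotype.

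Values were used as deposited. Of 45037 probe sets, 34945 carry 1 symbol in the array annotation, 932 several and 9160 none. A gene stands for its probe set of highest mean over 7 arrays. Null and wild type arrays were compared with limma 3.58.1 (R 4.3.3; lmFit, eBayes, no covariate), with p-values adjusted by Benjamini-Hochberg across every probe set, or every gene, and a threshold of 0.05. P-values weigh the difference between the groups against the spread between animals within them, moderated across all probe sets or genes. With 7 arrays they are imprecise. The script was tested on simulated data. Python 3.11.15 and matplotlib 3.10.9 drew the figures.

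The members and lists were chosen with earlier results of these data known. Named were every member probe set, the 6 genes most like and 3 most opposite to Fign, 2 most like each other member, 2 flanking genes on either side of Fign, and from each list up to 4 called genes or, with none, the 2 of largest absolute difference. Single markers were named after their values were seen. The sample titles give replicate numbers but no pairing of animals. Deviations of same-numbered null and wild type arrays from their group means correlated at -0.25, -0.31 and -0.17, and those of other pairs at -0.42 to 0.37. Within a group such deviations depend on each other, so these correlations cannot decide whether animals were paired.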

Additional observations from a re-analysis of the deposited data

Results flagged for a closer look

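On Spast probe set 1460400_at, null 4 read 7.02 while the other 3 null arrays read 7.68 to 7.73. The gap to the nearest of them is 0.924 of the range of the group, above Dixon's 95% critical value for 4 samples. Chance alone flags about 1 in 20 groups, and this was 1 of 42 probe sets and genes looked at in this way.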

How the results depend on the processing

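Fign kept its direction on all 3 probe sets under every alternative that gave a value, at 3.05 to 3.32 on 1450268_at, 3.61 to 4.01 on 1442873_at and 0.49 to 1.22 on 1439602_at, and leaving out single arrays gave 3.05 to 3.32 on the first. As Fign was picked for its rise in these same null arrays, the kept direction was largely built in. The number of called member probe sets other than Fign was 0, and it was 1 with an intensity trend and robust prior and 2 with array weights. By SAM it was 3, but there a score beyond 2 counted, with no adjustment for the number of tests. That cut took 10.3% of all probe sets as higher, so the SAM counts in this section are of a looser kind. With the replicate number as a block 3 member probe sets other than Fign were called, in a fit where null 4 has no partner. This fit gave 1696 higher probe sets, 1003 higher genes and 9 higher and 0 lower list genes. The sample titles do not say that the numbers pair the animals. Leaving out single arrays gave 0 to 1 such member probe sets higher and 0 lower, 210 to 1733 probe sets higher and 76 to 443 lower, 150 to 1030 genes higher and 58 to 253 lower, and 0 to 10 list genes higher and 0 to 1 lower. The deposited values themselves gave 840 and 204 probe sets, 521 and 143 genes and 4 and 1 list genes. In the order probe sets higher and lower, genes higher and lower and list genes higher and lower, counts were 2686, 965, 1791, 1034, 21 and 5 with array weights, 4630, 5717, 2026, 2341, 31 and 10 by SAM, 110, 96, 74, 78, 0 and 0 with the heterozygote among the wild type arrays, 412, 62, 291, 49, 2 and 0 without wild type 1 and null 2, and 189, 93, 133, 81, 1 and 0 with the SD of each array as a covariate. Centring arrays on their median gave 548, 124, 327 and 78 probe sets and genes and 1 higher list gene. Quantile normalization gave 318 lower probe sets, 270 lower genes and 1 higher and 2 lower list genes. Representing a gene by the mean or by the most variable of its probe sets left 0 list genes lower, and the most variable probe set turned Reep5 to 0.40. The covariate turned 1460400_at of Spast to -0.11, Vps4b to -0.084, Aspm to 0.043, Brca1 to 0.089, Kcnh7 to 0.012, Cobll1 to 0.073 and Grb14 to -0.0087. Grb14 was also -0.15 with array weights, -0.20 with the heterozygote among the wild type arrays and -0.13 without wild type 1 and null 2, and it ranged over -0.012 (without wild type 1) to 0.38 (without wild type 3) when single arrays were left out. None of these reversed values passed the test. The cause of these changes was not tested. Where probe sets are dim the table gives no detection calls, which limits the low values of Fign, Fignl1, 1442348_at of Katnal1, Gca and Cobll1.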
